A study of Drosophila melanogaster with 6 samples.

Results

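The Bithorax complex of Drosophila melanogaster holds the 3 Hox genes Ubx, abd-A and Abd-B, and it was followed here through S phase in Kc cells as a stretch of 340 kb on chromosome arm 3R, at 12470001 to 12810000 in Release 5 coordinates. It was defined by position alone: the 133 windows of 10 kb that lie wholly within these limits were taken, of 55900 windows in the genome. Windows start every 2.5 kb, so neighbours share reads, and 34 of the 133 do not overlap each other. Values of single windows below are from such non-overlapping windows, in the flanks too, unless overlap is mentioned. The 300 kb on each side, with 117 windows each of which 30 do not overlap, served for comparison.

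Hox genes encode homeodomain transcription factors that give body segments their identity. Ubx specifies the posterior thorax and the first abdominal segment, abd-A the anterior and middle abdomen, and Abd-B the posterior abdomen and the genitalia. The complex is the classic target of Polycomb group repressors and Trithorax group activators, and its long regulatory regions between the genes are read segment by segment in the embryo. Early and late replicating domains of a genome broadly correspond to active and silent chromatin, and the large Polycomb-repressed domains of fly cell lines are known as late replicating.

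Kc is a female line established from embryos, with the labels giving a late embryonic stage, the genotype se/e and wild type (WT) for all 6 libraries. Growing cells took up the thymidine analogue BrdU at 50 µg/ml for 1 h, were sorted by DNA content into early, middle and late S phase (Early S, Mid S and Late S, with 2 libraries each), and the labelled DNA was recovered with an antibody and sequenced. Every library has an extraction number of its own, but no label ties replicates to separate cultures, and the p-values therefore rest on a library-to-library spread that may be technical. No untreated or unlabelled control is among the libraries, and there is no condition other than the sorted fraction. Sorting gates hold a mixture of neighbouring times, so a value is an average over the cells of a gate.

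Values are RPKM, reads per kilobase of window, scaled to the total reads of that library. Each library is scaled to its own total, so a level says how large a share of that fraction's reads fell in a window, and levels of different fractions compare shares, not amounts of DNA. Libraries held 1384200 to 2936097 reads. Over the 133 overlapping windows of the complex, the median window held 61 and 44 reads (Early S, replicates 1 and 2), 160 and 132 reads (Mid S) and 262 and 185 reads (Late S). No window of the complex fell below 18 reads in any library, so all 133 were tested. Set beside the label female, the scaffold YHet of the Y chromosome held 0 to 3 reads per library, summed over its non-overlapping windows. In a single window 3 reads correspond to 0.102 to 0.217 RPKM, the limit that a count of 0 allows. No male library is among the 6 and the read filters are not stated, so these counts cannot settle the sex.

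A gene table of Release 6 gave names and order but no positions in the build of the files, so no window is assigned to a gene. All 3 Hox genes matched it. Towards higher coordinates the order is Ubx, abd-A, Abd-B, with 13 further genes listed between the first and the last: 7 long non-coding RNAs, 1 antisense RNA, 2 microRNAs and 3 protein-coding genes. Among these are lncRNA:bxd between Ubx and abd-A, lncRNA:iab4 and lncRNA:iab8 between abd-A and Abd-B, the microRNAs mir-iab-4 and mir-iab-8, which are known to repress the Hox genes of the complex, and Glut3, a predicted sugar transporter. The nearest listed neighbours are modSP, which encodes a serine protease of the Toll pathway, on the Ubx side, and lncRNA:CR46267 and VhaM9.7-d, a subunit of the proton pump V-ATPase, on the Abd-B side. The low-coordinate end of the complex is therefore called the Ubx side and the high-coordinate end the Abd-B side.

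The Bithorax complex held a larger share of the reads in Late S than in the earlier fractions. The mean over its 34 windows amounted to 2.92 and 2.95 RPKM for replicates 1 and 2 of Early S. The Mid S libraries stood at 6.72 and 7.34 RPKM, and the Late S libraries at 14.5 and 13.6 RPKM. Every library of a later fraction lay above every library of an earlier one, and the distance between fractions was several times the distance between replicates. The fraction means were 2.94 ± 0.0252, 7.03 ± 0.443 and 14.0 ± 0.594 RPKM (SD, n = 2 each). Late S thus stood 4.78-fold above Early S, and Mid S 2.39-fold above Early S. Of the sum of the 3 fraction means, Early S held 12.2%, Mid S 29.3% and Late S 58.5%. Against the mean of the chromosome arms in the same fraction, Early S of the complex was at 0.356-fold, Mid S at 0.856-fold and Late S at 1.75-fold. The sum of the 3 fraction means was 24.0 RPKM in the complex and 24.5 RPKM over the arms.

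**Figure D1:**
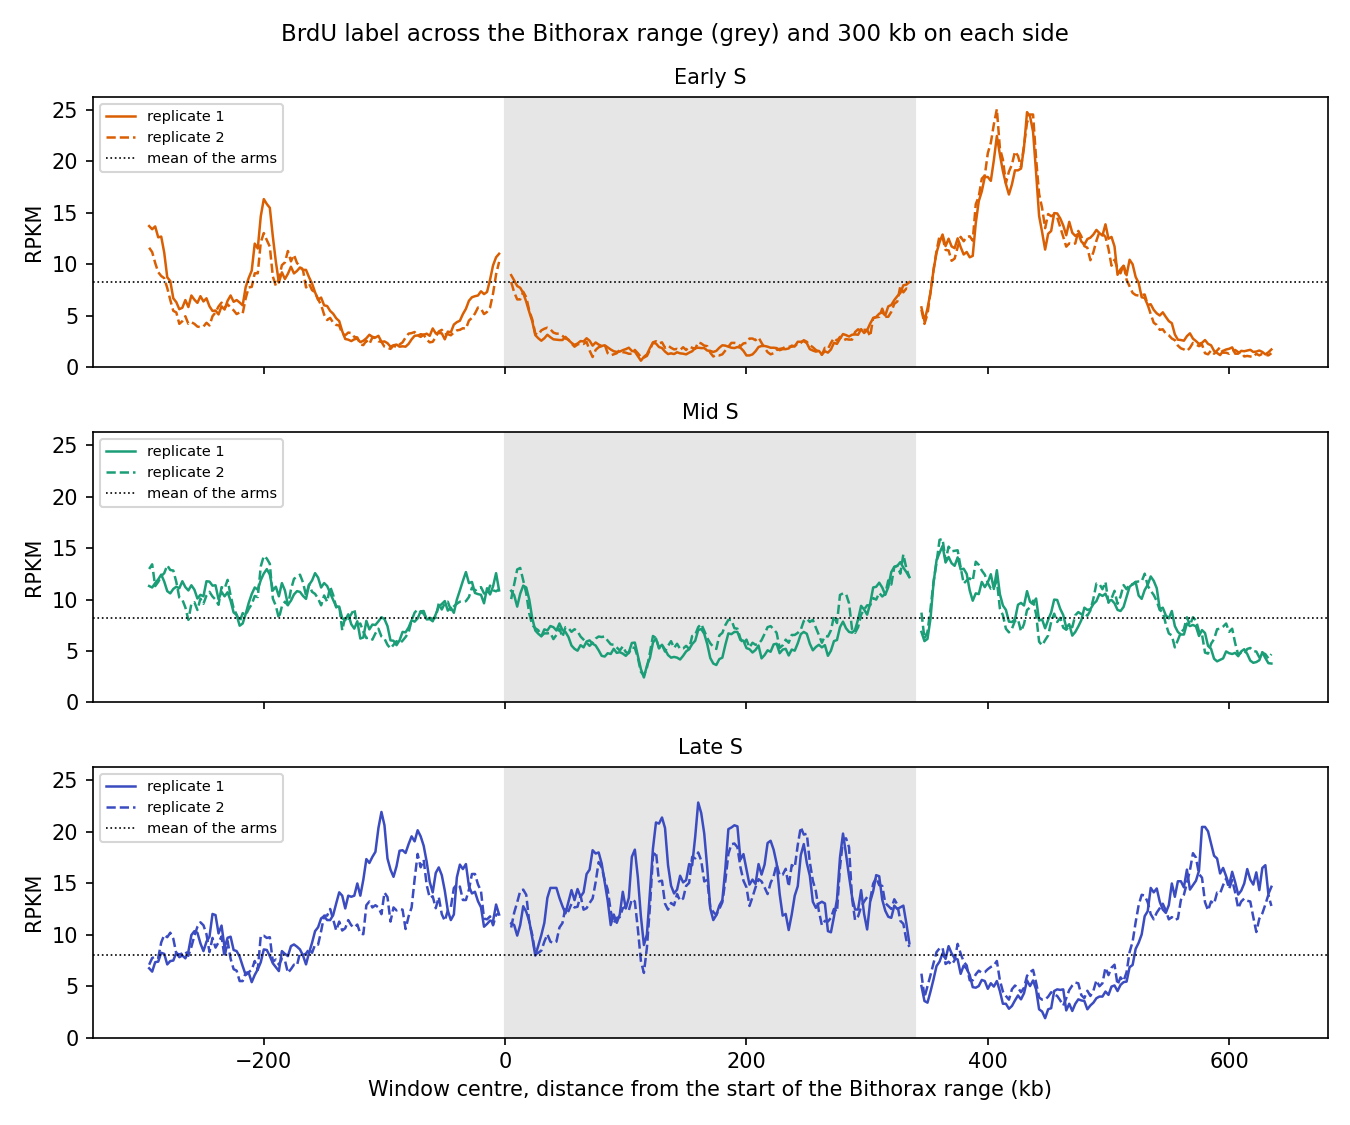
RPKM of windows of 10 kb, drawn every 2.5 kb, in 1 panel per fraction (replicate 1 solid, replicate 2 dashed, mean of the arms dotted) against the distance in kb of the window's centre from the start of the complex, which is shaded in grey. Lines break at both ends of the complex because windows that cross its limits belong to no region. Within the complex Early S lies mostly below the mean of the arms and Late S mostly above it. The order is turned over a stretch beyond the Abd-B side and, further from the complex, over parts of the flank on the Ubx side.

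The limma fit over all 53434 tested windows was used to compare fractions window by window, with a window called at a Benjamini-Hochberg adjusted p under 0.05. Differences are on the log2(RPKM + 0.0341) scale. Between Early S and Late S, 132 of the 133 windows were called higher in Late S, 0 were called higher in Early S, and 1 was not called. Over the genome 44.2% of windows were called higher in Late S and 37.6% higher in Early S. Early S minus Late S had a median of -2.87 over the 133 windows, against -0.23 over all tested windows, and 8.48% of all tested windows lay at or below that median. The 2 Late S libraries lay above the 2 Early S libraries in 133 of 133 windows, and in 48.8% of all tested windows.

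Mid S also exceeded Early S over the complex. Of the 133 windows, 132 were called higher in Mid S and 0 higher in Early S, with a median Early S minus Mid S difference of -1.48. The genome's shares were 43.5% and 20.5%, and its median was -0.36. Under quantile normalization of the libraries the count of windows higher in Mid S was 71 of 133. Between Mid S and Late S, 113 windows were called higher in Late S, where the genome has 26.9%, and 1 higher in Mid S, where the genome has 38.7%. The median Mid S minus Late S difference was -1.28, against 0.17 over the genome. The 19 windows not called lay at the 2 ends: 10 overlapping windows at 12470001 to 12502500 on the Ubx side, 1 at 12765001 to 12775000 and 8 at 12780001 to 12807500 on the Abd-B side.

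The same comparison was made for the complex as a single feature, among 350 consecutive segments of 340 kb that cover the arms. The mean log2 level of the complex was 1.28 and 1.32 (Early S), 2.65 and 2.81 (Mid S), and 3.83 and 3.75 (Late S). No library of a fraction overlapped those of another. Early S minus Late S was -2.49 ± 0.0783 (SE; limma, adjusted p = 4.27e-09 over the segments), which is a 5.63-fold higher level in Late S as a geometric mean. Early S minus Mid S was -1.43 (limma, adjusted p = 1.42e-06) and Mid S minus Late S was -1.06 (limma, adjusted p = 4.21e-06). Quantile normalization moved Early S minus Mid S to -0.64 (limma, adjusted p = 0.000117). Of all segments, 46% were called higher in Late S than in Early S, and 56.9% higher in Mid S than in Early S. Late S was called above Mid S in 28.9%.

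Among the 350 segments, ordered by Early S minus Late S, the complex was the 10th from the lowest, in a range of -3.13 to 2.52 with a median of -0.03. It was the lowest of the 81 segments on 3R. The grid on 3R starts at the complex, so only the complex is framed by its own limits and other late stretches may be split between segments. The 3 segments whose levels over the 6 libraries were most like those of the complex, by Euclidean distance of library-centred log2 values, were X at 14280001 to 14620000 with a distance of 0.278, 2L at 11220001 to 11560000 with 0.333, and 2L at 18020001 to 18360000 with 0.390. Their Early S minus Late S differences were -2.53, -2.29 and -2.36.

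As a ratio of highest to lowest level, the 34 windows of the complex differed far more in Early S than in Late S. The lowest window was the same in every fraction, and it held only 30 and 18 reads in the Early S libraries. Early S ranged 8.75-fold, from 0.986 ± 0.0501 RPKM at 12580001 to 12590000 to 8.63 ± 0.469 RPKM at the first window on the Ubx side (SD, n = 2). Mid S ranged 5.26-fold, from 2.53 ± 0.139 RPKM in the same low window to 13.3 ± 0.00323 RPKM at 12790001 to 12800000, near the Abd-B side. Late S ranged 2.55-fold, from 7.64 ± 1.92 RPKM, again in the low window, to 19.5 ± 2.00 RPKM in the window next to it, at 12590001 to 12600000. Early S was below the mean of the arms in 33 of 34 windows and Mid S in 26, while Late S was above it in 32. The shares of all arm windows below or above these means were not counted, so these counts are a description. The highest levels of Early S and Mid S were thus at or near the ends of the complex, and the highest of Late S in its interior.

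The 3 windows with the lowest Early S minus Late S difference lay in the interior. The window at 12570001 to 12580000 had Early S levels of 1.60 and 1.32 RPKM, Mid S levels of 5.78 and 5.35 and Late S levels of 17.6 and 13.4. Its fractions did not overlap, and its difference was -3.37 ± 0.216 (SE; limma, adjusted p = 1.59e-08). The window at 12620001 to 12630000 had Early S levels of 1.57 and 1.90 RPKM, Mid S levels of 5.67 and 6.46 and Late S levels of 16.7 and 17.6, a difference of -3.29 ± 0.193 (limma, adjusted p = 1.45e-08). Here too the order Early S, Mid S, Late S held in both replicates. The window at 12610001 to 12620000, with Early S levels of 1.36 and 1.69 RPKM, Mid S levels of 4.18 and 5.20 and Late S levels of 15.7 and 13.3, stood at -3.22 ± 0.223 (limma, adjusted p = 2.18e-08), and had the highest Late S share of the complex, 70.0% of the summed fraction means.

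At the ends the fractions lay closer together. The first window on the Ubx side, 12470001 to 12480000, had Early S levels of 8.96 and 8.29 RPKM, Mid S levels of 10.9 and 10.0 and Late S levels of 11.1 and 10.7. Early S lay below both later fractions, which overlapped each other, and its difference from Late S was -0.34 ± 0.148 (SE; limma, adjusted p = 0.0485), while Early S minus Mid S, at -0.28, was not called (limma, adjusted p = 0.118). The last window on the Abd-B side, 12800001 to 12810000, had Early S levels of 8.28 and 7.55 RPKM, Mid S levels of 12.2 and 12.2 and Late S levels of 9.16 and 8.81. Mid S was the highest fraction there, 0.44 above Late S on the log2 scale (limma, adjusted p = 0.0187), and it is the 1 window of the complex called higher in Mid S than in Late S. It is also the 1 window not called between Early S and Late S, with a difference of -0.18 ± 0.148 (limma, adjusted p = 0.262).

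The difference between Early S and Late S deepened with distance from either end over about the same number of windows. From the Ubx side inwards the first 6 windows had Early S minus Late S differences of -0.34, -0.89, -1.32, -1.73, -2.02 and -2.52. From the Abd-B side inwards the first 6 had -0.18, -0.93, -1.35, -1.60, -1.89 and -2.57. Each window was lower than the one before it on both sides, though the steps between neighbours were not tested. For the 17 pairs of windows at the same distance from the 2 ends, the median absolute difference was 0.0999. The pair furthest apart lay 100 kb from the ends, at -3.37 on the Ubx side and -2.67 on the Abd-B side.

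**Figure D2:**
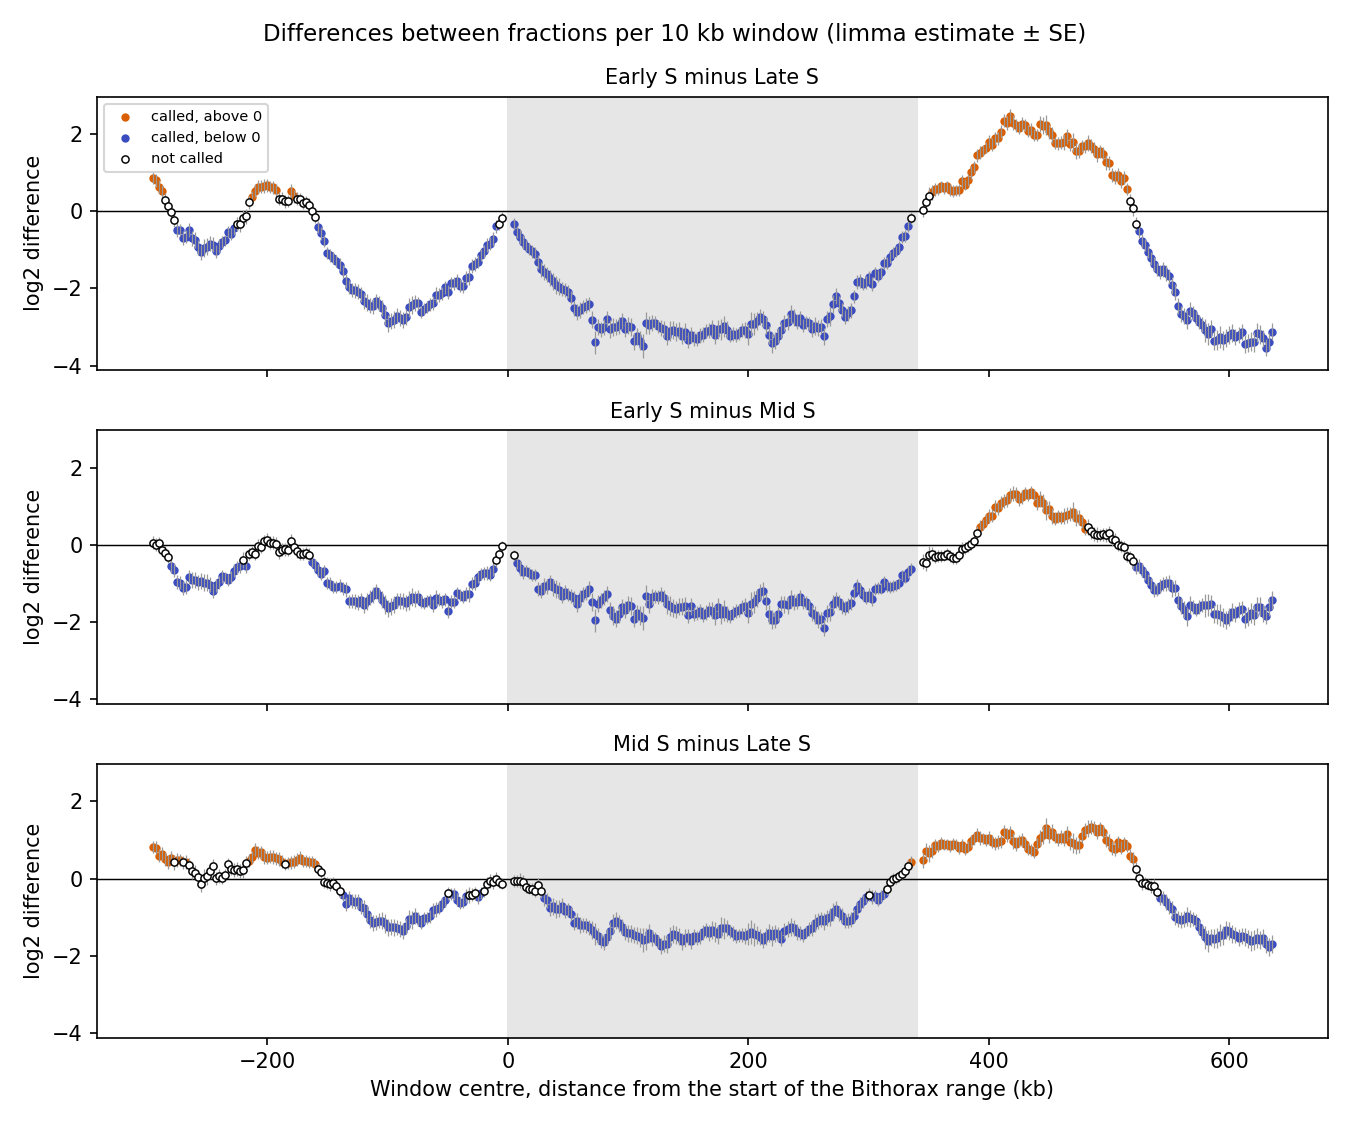
Differences between fractions on the log2 scale, with SE from the limma fit, for windows of 10 kb every 2.5 kb against the distance in kb of the window's centre from the start of the complex, which is shaded in grey; filled points were called and open points were not. Early S minus Late S lies between -3.48 and -0.18 over the 133 overlapping windows of the complex. It rises above 0 beyond the Abd-B side and, further from the complex, in parts of the flank on the Ubx side. In the outer part of the flank on the Abd-B side it falls below 0 again, to -3.54 at its lowest.

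After these values were seen, the outer 50 kb on each side and the interior 240 kb were summarised separately, as a description. In the interior, at 12520001 to 12760000, Early S was 1.93 ± 0.0533 RPKM, Mid S 5.83 ± 0.706 RPKM and Late S 14.9 ± 0.690 RPKM (SD, n = 2), a 7.74-fold ratio of Late S to Early S. In the first 50 kb the fractions were at 5.12 ± 0.128, 8.69 ± 0.123 and 11.3 ± 0.718 RPKM, and in the last 50 kb at 5.59 ± 0.213, 11.1 ± 0.256 and 12.5 ± 0.00518 RPKM. The ratios of Late S to Early S at the 2 ends were 2.21 and 2.24. Late S held 65.8% of the summed fraction means in the interior, with 57.9% to 70.0% in its single windows. Of the 133 overlapping windows, 98 had at least 4-fold more Late S than Early S, and the longest unbroken run of them spanned 252.5 kb, from 12510001 to 12762500. A ratio of at least 8-fold was found in 48 windows, with the longest run spanning 60 kb, from 12592501 to 12652500. The shares of all tested windows at these ratios were not counted. Early S minus Late S was at or below -2.87, the median of the complex, in 8.48% of all tested windows.

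**Figure D3:**
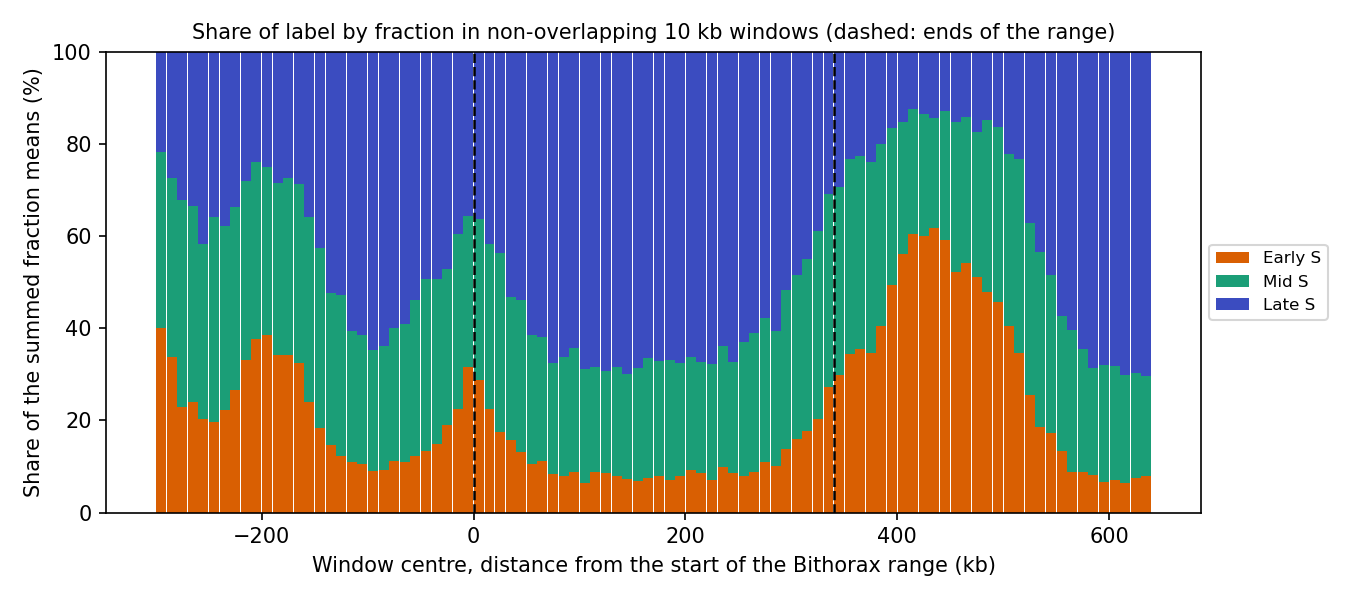
Share of the summed fraction means, in percent, held by Early S, Mid S and Late S in non-overlapping windows of 10 kb, as stacked bars against the distance in kb from the start of the complex, with dashed lines at its ends. Late S holds 57.9% to 70.0% in the interior of the complex and 36.4% and 30.9% in its first and last window.

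The 2 flanks differed from the complex and from each other. On the Ubx side the flank had mean Early S levels of 6.62 and 5.71 RPKM, Mid S levels of 9.90 and 9.70 and Late S levels of 11.8 and 10.55, a ratio of Late S to Early S of 1.81. On the Abd-B side it had mean Early S levels of 9.57 and 9.47 RPKM, Mid S levels of 8.68 and 8.88 and Late S levels of 8.80 and 8.78, a ratio of 0.924. The complex was below both flanks in both Early S libraries and above both in both Late S libraries. Between Early S and Late S, 80 of the 117 windows on the Ubx side were called higher in Late S (68.4%) and 15 higher in Early S (12.8%). On the Abd-B side 45 of 117 were called higher in Late S (38.5%) and 66 higher in Early S (56.4%). The genome's shares were 44.2% and 37.6%. Early S minus Late S ran from -3.54 to 2.46 over the 117 overlapping windows of the Abd-B flank, so its mean ratio averages windows of opposite sign. Mid S exceeded Early S in 86 windows on the Ubx side (73.5%), with 0 the other way. On the Abd-B side it did so in 46 (39.3%), with 36 the other way (30.8%), against 43.5% and 20.5% over the genome. Late S exceeded Mid S in 43 windows on the Ubx side (36.8%) and 38 on the Abd-B side (32.5%), against 26.9% over the genome. Mid S exceeded Late S in 32 (27.4%) and 71 (60.7%), against 38.7%.

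**Figure D4:**
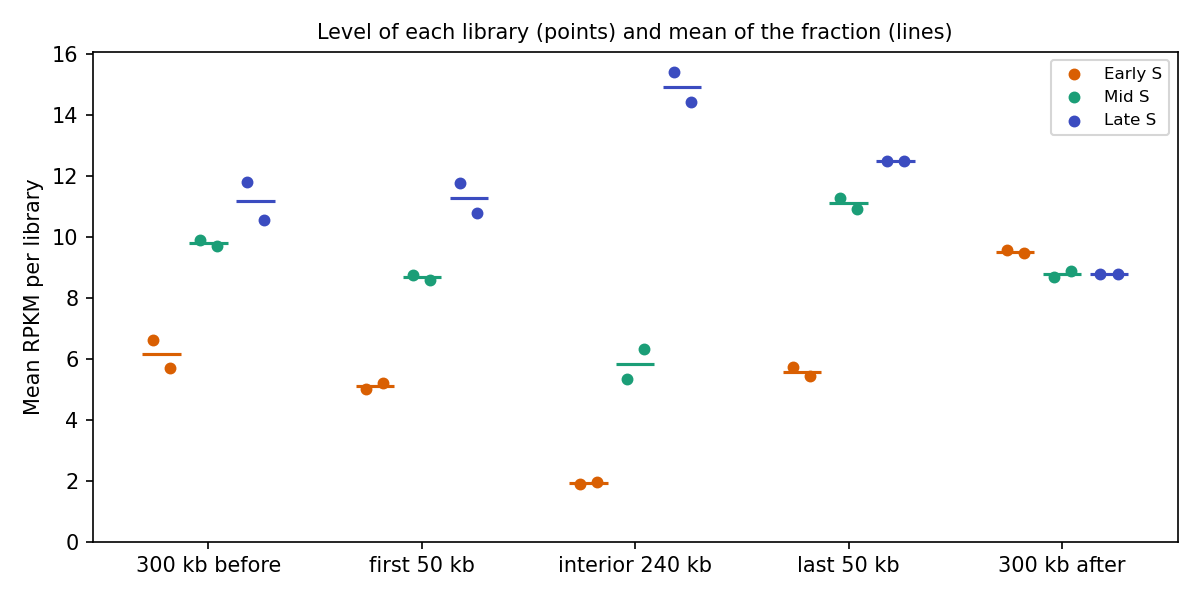
Mean RPKM of each library (points) and mean of each fraction (lines) in the 300 kb before the complex, its first 50 kb, its interior 240 kb, its last 50 kb and the 300 kb after it. The interior has the lowest Early S mean, 1.93 RPKM, and the highest Late S mean, 14.9 RPKM, of these 5 stretches.

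Relative to its flanks within each library, Early S of the complex had mean log2 levels of -1.38 and -1.18, Mid S of -0.52 and -0.36, and Late S of 0.66 and 0.58. The complex was thus below its flanks in the Early S and Mid S libraries and above them in the Late S libraries. The test of that change, fitted for the 340 segments with full flanks, gave -1.90 ± 0.0882 for Early S minus Late S (SE; limma, adjusted p = 1.02e-10), a 3.74-fold shift towards Late S. Early S minus Mid S was -0.84 (limma, adjusted p = 1.38e-06) and Mid S minus Late S was -1.06 (limma, adjusted p = 1.91e-07). Of the 340 segments, 45.9% were called in the same direction between Early S and Late S, 37.9% between Early S and Mid S and 36.8% between Mid S and Late S, and the complex ranked 18th from the lowest for Early S minus Late S. The size depends on the side used: against the Abd-B flank alone Early S minus Late S was -2.34 and against the Ubx flank alone -1.47. For Early S minus Mid S the Ubx flank alone gave -0.56 (limma, adjusted p = 0.000431) and quantile normalization -0.26 (limma, adjusted p = 0.0160).

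**Figure D5:**
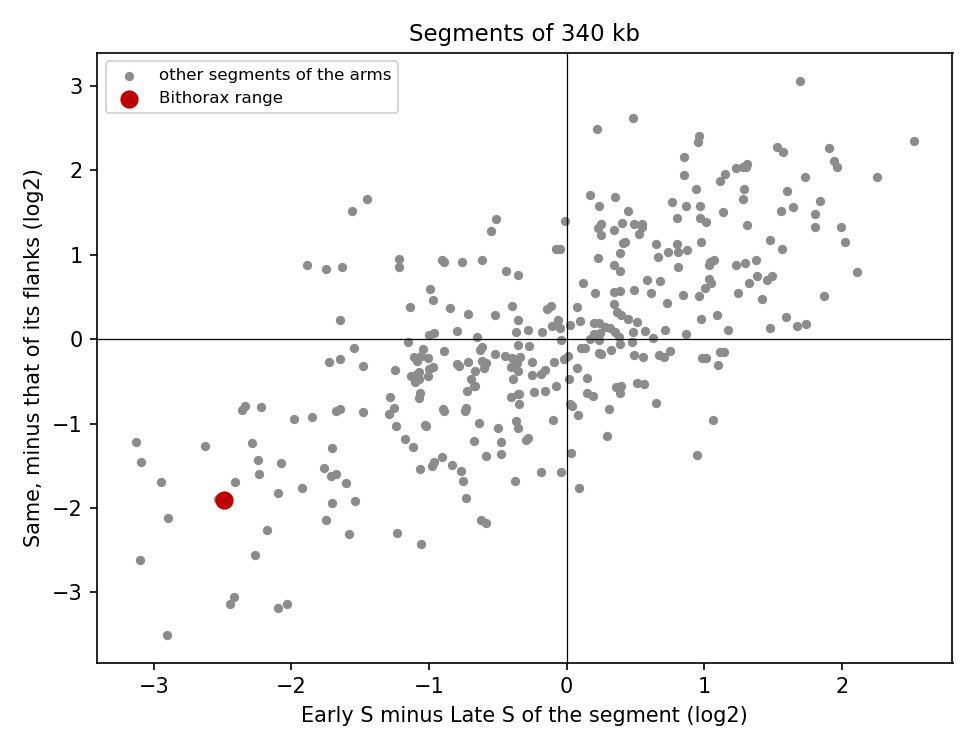
Each point is a segment of 340 kb on the chromosome arms, for the 340 segments with full flanks, with its Early S minus Late S difference on the horizontal axis and the same difference minus that of its flanks on the vertical axis, both log2. The Bithorax complex, in red, lies at -2.49 and -1.90, among the segments that are low on both axes.

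The windows called in 1 direction formed long runs, and the complex nearly filled 1 of them. Its run of windows called higher in Late S spanned 337.5 kb, from 12470001 to 12807500, with 132 overlapping windows and a median of -2.88 for Early S minus Late S. That the run starts at the limit of the complex rests on its first window, which was close to the threshold (limma, adjusted p = 0.0485). On the Ubx side it was set off from another Late S run by 5 overlapping windows that were not called, at 12457501 to 12477500. In the middle of that gap, at 12462501 to 12472500, the fractions were at 10.7 ± 0.120, 10.6 ± 1.10 and 11.5 ± 0.690 RPKM (SD, n = 2), and Early S minus Late S was -0.09 (limma, adjusted p = 0.579). The Late S run beyond it spanned 157.5 kb, from 12307501 to 12465000, with 60 windows and a median of -2.07. Among the non-overlapping windows of the flank the lowest, 12370001 to 12380000, lay in this run. It had 2.01 and 1.80 RPKM in Early S and 16.3 and 11.3 in Late S, a difference of -2.81. Further out on the Ubx side the sign turned too. Runs called higher in Early S lay at 12285001 to 12297500 (median 0.45) and at 12252501 to 12282500 (median 0.62). A run called higher in Late S followed at 12190001 to 12247500 (median -0.76). Beyond it, an Early S run spanned 11970001 to 12187500 (median 2.34), mostly outside the flank. The highest non-overlapping window of this flank, 12170001 to 12180000, stood at 0.87 (limma, adjusted p = 0.000137).

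On the Abd-B side the sign of the difference turned next to the complex. After 7 overlapping windows that were not called, at 12800001 to 12825000, came a run of 66 windows called higher in Early S, which spanned 172.5 kb from 12817501 to 12990000 with a median of 1.66. The highest of the 30 non-overlapping windows of this flank, 12880001 to 12890000, had Early S levels of 17.8 and 17.9 RPKM, Mid S levels of 8.99 and 7.17 and Late S levels of 3.29 and 4.05. Here the order of the fractions was the reverse of that in the complex, without overlap, and Early S minus Late S was 2.28 ± 0.174 (SE; limma, adjusted p = 3.89e-08). A further run called higher in Late S followed from 12990001 to 13207500, with 84 windows and a median of -2.82. It reached past the flank's end at 13110000. The lowest non-overlapping window of this flank, 13080001 to 13090000, lay in this run. It had 1.63 and 1.11 RPKM in Early S and 16.4 and 13.3 in Late S. Its difference was -3.42 ± 0.237 (SE; limma, adjusted p = 2.18e-08), slightly below the lowest such window of the complex, at -3.37.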

How the data were processed

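BrdU-labelled DNA of 6 libraries (Early S, Mid S and Late S, 2 each) was analysed. The authors deposited 1 RPKM value per 10 kb window and library, per the file headers. The aligner, genome build, read filters and any input correction are not stated in the labels or file headers used here. How reads with several placements were counted is likewise not stated, and it could change single windows. In windows of full width all values were whole multiples of 1 read within 0.02 reads, which gave the read numbers. Such limits cover counting error only. RPKM values are not counts, so no count test was used. Combined files of the authors were not used.

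Windows listed at 0 in every library (2466) were removed. The other 53434 were put on the log2(RPKM + 0.0341) scale, where 0.0341 is the lowest value above 0, and fitted with limma 3.58.1 in R 4.3.3 (lmFit, eBayes with trend, two-sided, Benjamini-Hochberg over all windows). The fit had 3 residual and 10.7 prior degrees of freedom and was tested on simulated data. Segment fits used mean log2 values of all windows of a segment. Levels and SDs are of linear RPKM over non-overlapping windows.

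Single windows were named by a rule: the first and last, the 3 highest and 3 lowest differences, the extremes of each fraction, the next and extreme windows of each flank, and the ends of called runs. The alternatives were other pseudocounts, filters, scalings, flanks and window spacings, a replicate block and leaving out each library. The members and rules were chosen with earlier results of these data known.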

Additional observations from a re-analysis of the deposited data

How the results depend on the processing

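For 12 results, 168 values under alternative settings were computed. Of these, 161 kept their direction and side of the threshold or, for counts, a share of the complex's windows within 1.5 times the share reported, and 7 were counts whose share moved further. The count of windows higher in Mid S than in Early S was 71 of 133 under quantile normalization, against 132. The count higher in Mid S than in Late S, reported as 1, was 0 with libraries centred on their medians, 4 under quantile normalization and 0 to 2 with 1 library left out: 0 without Mid S replicate 1 or without Mid S replicate 2, and 2 without Late S replicate 1. With non-overlapping windows only, it was 1 of 34, and the other counts were 33 of 34 (Late S above Early S), 33 (Mid S above Early S) and 28 (Late S above Mid S). The cause of these changes was not tested. With 1 library left out, windows higher in Late S than in Early S numbered 129 to 131, those higher in Mid S than in Early S 127 to 132, and those higher in Late S than in Mid S 94 to 113. Early S minus Late S of the complex as a single segment then ranged from -2.53 to -2.45, and relative to the flanks from -2.00 to -1.80. The fraction left with 1 library is assumed to vary like the others. Same-numbered replicates are not known to share a culture. Their deviations correlated at 0.0384 for Early S and Mid S, 0.108 for Early S and Late S and 0.241 for Mid S and Late S. With replicate number as a block the single-segment Early S minus Late S had the same size (limma, adjusted p = 2.74e-09), and the window counts were 132, 132, 114 and 1, so no count moved by more than 1. Depth limits single Early S windows of the interior most, where as few as 18 reads stand behind a value.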

Other observations

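One 10 kb window of the complex, 12580001 to 12590000, held little label in any fraction, and it was picked out after its values were seen. Replicates 1 and 2 of Early S had 30 and 18 reads there, those of Mid S 68 and 52, and those of Late S 167 and 87. The sum of its 3 fraction means was 11.2 RPKM, against a median of 23.3 RPKM and a range of 17.7 to 32.6 RPKM in the other windows of the complex, with 22.5 and 28.1 RPKM in its neighbours. Relative to the other windows' median, Early S was at 48.0%, Mid S at 40.5% and Late S at 55.2%, and it was the lowest window of the complex in 5 of 6 libraries. Its Early S minus Late S difference, -2.89 ± 0.285 (SE), lay within the range of the interior. Of 47785 windows on the arms, 5.15% had a sum as low or lower. Mappability, GC content and copy number of the window were not tested.

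Within the 24 windows of the interior, levels rose and fell along the complex in all fractions. As a description, with no test, Pearson's r between the 2 replicates over these windows was 0.52 for Early S, 0.79 for Mid S and 0.70 for Late S. Between fraction means r was 0.80 for Early S and Mid S, 0.54 for Early S and Late S and 0.73 for Mid S and Late S. The low window is 1 of the 24, and windows share their sequence and mappability between libraries. Over the whole complex, the log2 ratio of replicate 1 to replicate 2 had an SD over windows of 0.315 for Early S, 0.207 for Mid S and 0.223 for Late S.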
